A study of Mus musculus with 12 samples.

Results

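B2m and Tfrc encode proteins of the cell surface and are both among the genes that serve as references in expression assays. B2m encodes β2-microglobulin, the small soluble chain that pairs with the heavy chains of class I major histocompatibility molecules and is needed for most of them to reach the surface. It also pairs with the related proteins CD1, the neonatal Fc receptor and Hfe. Tfrc encodes transferrin receptor 1, which binds iron-loaded transferrin outside the cell and carries it into endosomes, and its mRNA is stabilised by iron regulatory proteins when cellular iron is low. In the brain, transferrin receptor 1 is known from capillary endothelium and from neurons. The 2 proteins are linked through Hfe, which needs β2-microglobulin to reach the surface and binds transferrin receptor 1 there.

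The 2 genes were chosen by probe and by the RefSeq accession that the scanner files give each probe, NM_009735.3 for B2m and NM_011638.3 for Tfrc. B2m lies on chromosome 2 and Tfrc on chromosome 16 of the mouse. They are 2 of the 15 genes that these files name, each through a probe printed 20 times on every scan, among 60915 probes in all. The other 13 named genes are Actb, G6pd2, Gapdh, Gk, Gusb, Hprt, Hsp90ab1, Ldhal6b, Nono, Ppia, Rpl13a, Tbp and Tuba1b.

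The study measured RNA in 4 dissected regions of the brain of untreated male BALB/c mice aged 10 weeks, namely olfactory bulb, hypothalamus, hippocampus and cerebellum. RNA depleted of ribosomal RNA was amplified with random primers, labelled with Cy3 and hybridised to a 1-colour array made by Arraystar that carries probes for mouse lncRNAs and mRNAs. Each region had 3 scans, numbered as replicates 1 to 3, from 3 mice in all. The labels do not say which scans came from which mouse, so p-values measure the spread between arrays, part of which may be technical.

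Replicates 1 and 3 of hippocampus, and likewise of cerebellum, were nearly alike probe by probe. The SD of their log2 difference over 15229 bright probes was 0.028 in hippocampus and 0.026 in cerebellum, against 0.313 to 0.510 for the other pairs of scans of a region. Over the probes printed 20 times, the median SD of copies within a scan was 0.031 on the scan where it was lowest. The paired scans differed in brightness: unscaled, replicate 1 exceeded replicate 3 by 0.09 log2 units for B2m in both regions, and by 0.06 in hippocampus and 0.11 in cerebellum for Tfrc. Scaled, they were within 0.0045 log2 units for B2m and 0.028 for Tfrc. Each such pair was averaged and counted as 1 array, which left 10 arrays, 3 of olfactory bulb, 3 of hypothalamus, 2 of hippocampus and 2 of cerebellum. The barcode in the scan headers took 1 value per region, read here as the position of the array on the slide. On that reading, region and array position cannot be told apart. Replicates of 1 number shared a scan time, except that replicates 3 of hippocampus and cerebellum were scanned apart from those of olfactory bulb and hypothalamus.

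On each scan, 87.9 to 93.2% of probes were well above background and no spot was saturated. Scans differed in brightness by region. The 75th percentile of the log2 processed signal averaged 10.62 in olfactory bulb, 10.56 in cerebellum, 10.27 in hippocampus and 10.13 in hypothalamus. None of 44 region and cell-type markers looked for was named by a probe, so the dissections were not checked against markers here. The same held for 20 genes of class I molecules and antigen presentation, Hfe among them, and for 15 genes of iron handling. In tissue RNA, fewer cells of a type and less RNA per cell cannot be told apart.

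Both genes were read far above background on every scan. All 240 copies of B2m and all 240 copies of Tfrc were well above background, and the median local background of these spots lay between 26.5 and 37.5 intensity units. The processed signal of B2m, as the geometric mean of its copies, ran from 8826 to 16535 intensity units over the 12 scans with a median of 9348. That of Tfrc ran from 45298 to 70720 with a median of 57588. These intensities belong to different probes and do not rank the 2 transcripts by abundance. Copies of a probe within a scan had an SD of 0.064 to 0.143 log2 units for B2m and 0.017 to 0.109 for Tfrc. The scanner software marked 3 copies of B2m and 13 of Tfrc as outliers over all scans, and these were left out. All of them lay on scans of hippocampus and cerebellum. The lowest SD of Tfrc, 0.017, was on a cerebellum scan with 5 copies left out. With marked copies kept, the unscaled log2 mean of Tfrc was 15.72 instead of 15.73 in hippocampus and 15.87 instead of 15.88 in cerebellum.

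B2m differed between the regions and was highest in the olfactory bulb and lowest in the cerebellum when each scan was scaled to its 75th percentile. On that scale the olfactory bulb stood 1.57-fold above the cerebellum and 1.33-fold above the hippocampus, and the hypothalamus stood 1.32-fold above the cerebellum. Without any scaling only the excess in the olfactory bulb remained, at 1.64- to 1.70-fold over each of the other 3 regions.

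The scaled log2 signal of B2m, for which the 75th percentile of the scan was subtracted from each log2 value, was 3.35, 3.21 and 3.28 on the 3 arrays of olfactory bulb. It was 3.11, 2.99 and 2.98 in hypothalamus. The hippocampus had 2.92 and 2.81, and the cerebellum 2.70 and 2.55. No array of one region lay within the range of another, and the order was olfactory bulb, hypothalamus, hippocampus, cerebellum. How many of all tested probes separated by region, scaled or unscaled, was not counted. Region means were 3.28 ± 0.07 (SD, n = 3) in olfactory bulb, 3.03 ± 0.07 (SD, n = 3) in hypothalamus, 2.86 ± 0.08 (SD, n = 2) in hippocampus and 2.62 ± 0.10 (SD, n = 2) in cerebellum.

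The difference of B2m over the 4 regions passed the moderated F test of limma, fitted on all 56449 tested probes, with a Benjamini-Hochberg adjusted p of 0.00495. Of all tested probes, 36.0% passed the same test, so a call there was common on these arrays. Among pairs of regions, the olfactory bulb exceeded the cerebellum by 0.65 ± 0.10 log2 units (SE; limma adjusted p = 0.00187), where 21.6% of probes were called. It exceeded the hippocampus by 0.42 ± 0.10 (SE; limma adjusted p = 0.0196), where 20.3% of probes were called. The hypothalamus exceeded the cerebellum by 0.40 ± 0.10 (SE; limma adjusted p = 0.0177), where 26.1% of probes were called.

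Neighbours in the order of B2m did not pass the test. The olfactory bulb was 0.25 log2 units above the hypothalamus (95% interval 0.05 to 0.45, limma adjusted p = 0.0812, 23.4% of probes called). The hypothalamus was 0.17 above the hippocampus (95% interval -0.06 to 0.39, limma adjusted p = 0.365, 16.9% called). The hippocampus was 0.24 above the cerebellum (95% interval -0.01 to 0.49, limma adjusted p = 0.172, 23.3% called).

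The calls of B2m against hippocampus and cerebellum differed in how far they rested on single arrays. The excess in the olfactory bulb over the cerebellum was called without any 1 array, at 0.58 to 0.72 log2 units. The excess over the hippocampus lost its call without replicate 1 or 3 of olfactory bulb (limma adjusted p = 0.0545 and 0.0541) and without either array of hippocampus (limma adjusted p = 0.0526 and 0.139). Over its leave-one-out fits that difference stayed between 0.36 and 0.47 log2 units. The excess of hypothalamus over cerebellum lost its call without replicate 1 of hypothalamus (limma adjusted p = 0.0561) and without replicate 2 of cerebellum (limma adjusted p = 0.111).

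Arrays that shared a replicate number deviated together for B2m: replicate 1 was the highest of its region in all 4 regions. In hippocampus and cerebellum that array averages scans of scan times 1 and 4, so the replicate number does not mark a single scan time there. With the replicate number as a block, all 6 differences of B2m passed limma's test. The olfactory bulb then exceeded the hypothalamus by 0.25 ± 0.03 log2 units (SE; limma adjusted p = 0.0028), and the hypothalamus exceeded the hippocampus by 0.18 ± 0.04 (SE; limma adjusted p = 0.0233). The hippocampus exceeded the cerebellum by 0.24 ± 0.04 (SE; limma adjusted p = 0.00737). With that block, 53.9% of all probes were called over the 4 regions. For pairs of regions the blocked fit called 41.4% of probes for olfactory bulb against hypothalamus, 37.2% against hippocampus and 36.2% against cerebellum. It called 32.6% for hypothalamus against hippocampus, 42.0% for hypothalamus against cerebellum and 41.6% for hippocampus against cerebellum. Within the first scan time the olfactory bulb was 0.65 log2 units above the cerebellum for scaled B2m, and within the second it was again 0.65 above. Against the hypothalamus the excess was 0.24, 0.22 and 0.29 within the first 3 scan times.

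Without scaling, the log2 signal of B2m was 14.01, 13.86 and 13.83 in olfactory bulb. It was 13.23, 13.13 and 13.13 in hypothalamus, 13.15 and 13.11 in hippocampus and 13.20 and 13.18 in cerebellum. The arrays of olfactory bulb lay above all others. Those of hypothalamus overlapped both hippocampus and cerebellum, and the latter did not overlap each other. The olfactory bulb exceeded hypothalamus, hippocampus and cerebellum by 0.74, 0.77 and 0.71 log2 units (limma adjusted p = 0.000169, 0.000326 and 0.000609), against 51.2, 39.8 and 23.6% of probes called without scaling. The means of the other 3 regions lay within 0.06 of each other, with limma adjusted p-values of 0.702 to 0.899, where 17.6% of probes were called for hypothalamus against hippocampus, 42.8% for hypothalamus against cerebellum and 32.8% for hippocampus against cerebellum. Scan brightness also differed in the pairs with olfactory bulb. The 75th percentile of olfactory bulb exceeded that of hypothalamus by 0.49, of hippocampus by 0.35 and of cerebellum by 0.06 log2 units. The unscaled excess of B2m less this gap is, by construction, the scaled difference given above. The part of scan brightness in the unscaled B2m differences was not tested beyond the scalings given here.

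**Figure D1:**
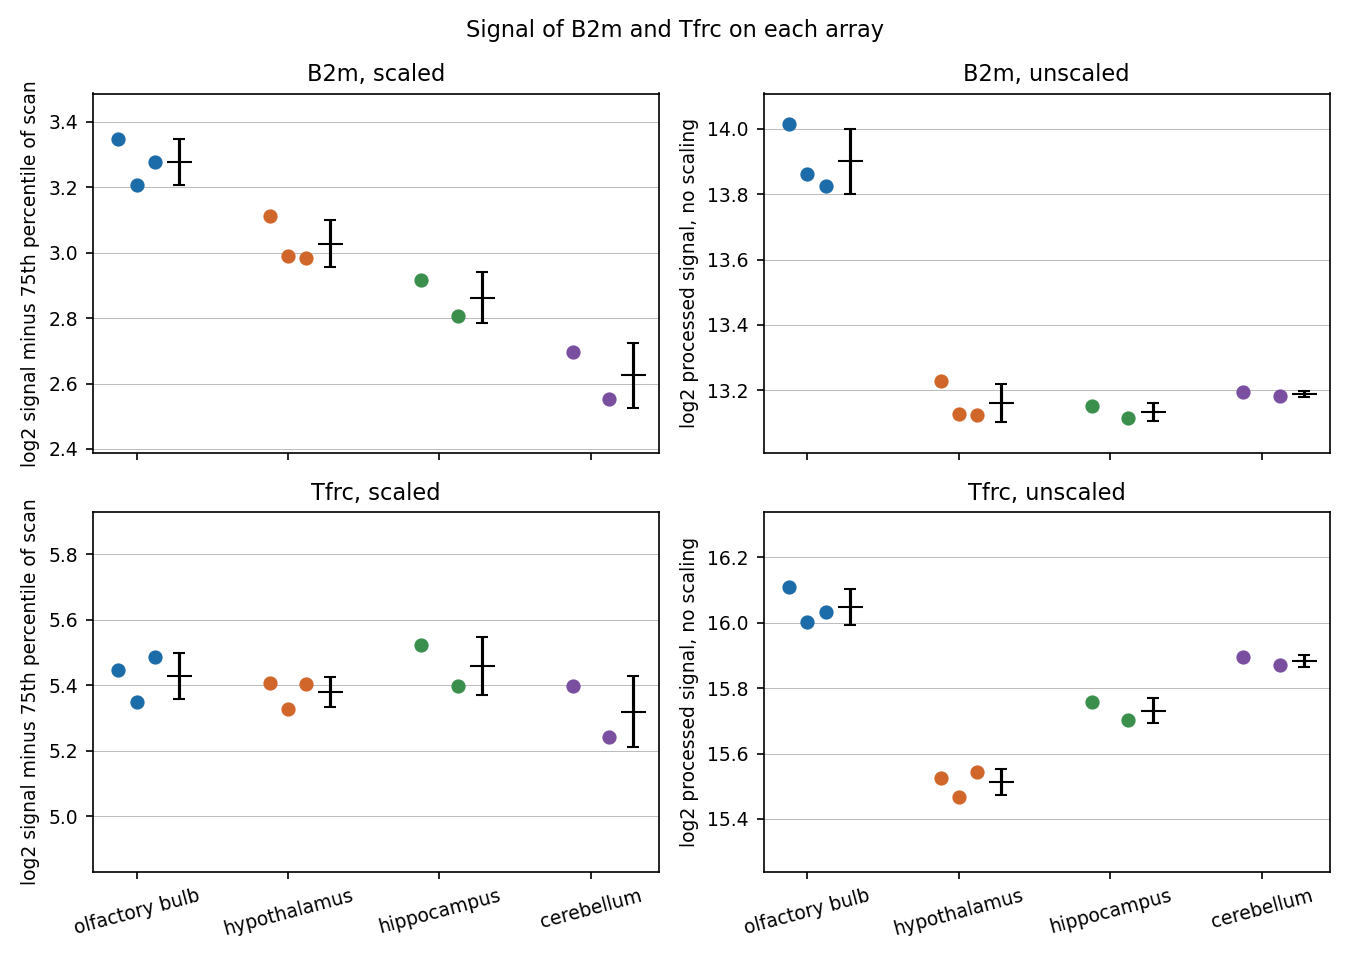
The log2 signal of B2m (top) and Tfrc (bottom) is plotted for each array by brain region, scaled to the 75th percentile of the scan (left) and unscaled (right). Points are arrays, replicate 1 leftmost within a region, and bars are the region mean ± SD; every panel spans the same number of log2 units. Scaled B2m steps down from 3.28 in olfactory bulb to 2.62 in cerebellum, whereas scaled Tfrc lies between 5.24 and 5.52 on all arrays.

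Tfrc was not found to differ between the regions once scans were scaled to their 75th percentile. Its region means spanned 0.14 log2 units from hippocampus to cerebellum, against a spread of 0.07 between arrays of a region. Without scaling it was highest in olfactory bulb and lowest in hypothalamus, 1.45-fold apart, in the same order as the brightness of the scans.

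The scaled log2 signal of Tfrc was 5.45, 5.35 and 5.49 in olfactory bulb. In hypothalamus it was 5.41, 5.33 and 5.40. It was 5.52 and 5.40 in hippocampus and 5.40 and 5.24 in cerebellum. The regions overlapped. Region means were 5.46 ± 0.09 (SD, n = 2) in hippocampus, 5.43 ± 0.07 (SD, n = 3) in olfactory bulb, 5.38 ± 0.05 (SD, n = 3) in hypothalamus and 5.32 ± 0.11 (SD, n = 2) in cerebellum, and no neighbours in that order differed beyond their spread.

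For Tfrc the moderated F test over the 4 regions gave a limma adjusted p of 0.699, and none of the 6 pairs passed. At an unadjusted p of 0.05 the limma contrasts called none either, the smallest being 0.222. The intervals show how large a difference could have been missed under this scaling and do not cover the choice of scaling. The olfactory bulb minus hypothalamus was 0.05 log2 units (95% interval -0.15 to 0.25) and olfactory bulb minus hippocampus was -0.03 (95% interval -0.26 to 0.19). The olfactory bulb minus cerebellum was 0.11 (95% interval -0.12 to 0.33), and the widest gap, hippocampus minus cerebellum, was 0.14 (95% interval -0.11 to 0.39). Without single arrays the latter ran from 0.06 to 0.22, and olfactory bulb minus cerebellum from 0.03 to 0.18. A missed test does not show that levels were equal.

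Replicate 2 gave the lowest Tfrc value of its region in all 4 regions. With the replicate number as a block, the F test for Tfrc gave a limma adjusted p of 0.123, and the closest pair was hippocampus minus cerebellum at 0.14 ± 0.04 log2 units (SE; limma adjusted p = 0.0522). Within scan times, olfactory bulb minus cerebellum was 0.04 in the first and 0.11 in the second for scaled Tfrc.

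Without scaling, the log2 signal of Tfrc was 16.11, 16.00 and 16.03 in olfactory bulb. It was 15.53, 15.47 and 15.55 in hypothalamus. The hippocampus had 15.76 and 15.70, and the cerebellum 15.90 and 15.87. None of the regions overlapped, and the F test gave a limma adjusted p of 0.0015, against 55.3% of probes called without scaling. The share of probes without overlap between regions was not counted. The olfactory bulb exceeded the hypothalamus by 0.54 log2 units (limma adjusted p = 0.000426) and the hippocampus by 0.32 (limma adjusted p = 0.0121). The hypothalamus was lower than the cerebellum, at -0.37 (limma adjusted p = 0.00561). The 75th percentile of the scans had the same order of regions and differed by 0.49, 0.35 and -0.43 in these pairs; its part in the unscaled Tfrc differences was not tested beyond the scalings given here.

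Whether Tfrc passed the test depended on the scaling. With the median of the scan in place of the 75th percentile, the F test of Tfrc gave a limma adjusted p of 0.354, with 38.6% of probes called. With quantile normalization it gave 0.440, with 36.7% called, but 0.0420 once the replicate block was added to that scaling. The share of probes called in that blocked fit is not given here. With 75th percentile scaling, the block raised the share called from 36.0 to 53.9%. Scaling to the mean of the other 13 named genes gave 0.0482 for Tfrc, with 41.5% of probes called, and left hypothalamus minus hippocampus at -0.27 log2 units (limma adjusted p = 0.0187, 21.7% of probes called) as the only pair of Tfrc called. Under that scaling Tfrc was highest in hippocampus, at 2.46 ± 0.02 (SD, n = 2), and lowest in hypothalamus, at 2.19 ± 0.03 (SD, n = 3), relative to that mean.

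B2m had its highest region mean in olfactory bulb under each of these scalings. The excess over cerebellum was 0.66 log2 units with the median, 0.56 with quantile normalization, 0.52 with the other 13 named genes and 0.71 without scaling, and each passed limma's test. The probes called there were 24.5, 22.7 and 27.8% with the median, quantiles and named genes. The excess over hippocampus was 0.36 with quantile normalization, 0.27 with the other named genes and 0.77 without scaling, and passed each time, with 20.7 and 25.3% of probes called in the 2 scaled fits. The excess over hypothalamus passed with the median (0.27, limma adjusted p = 0.0203, 26.2% of probes called), with the other named genes (0.30, limma adjusted p = 0.00337, 28.3% called) and without scaling, but not with quantile normalization (0.20, limma adjusted p = 0.134, 24.1% called). With the replicate block added to quantile normalization that excess passed as well (limma adjusted p = 0.00536). The order of the other 3 regions was less settled, since hypothalamus minus hippocampus was -0.021 with the other named genes and hypothalamus minus cerebellum was -0.028 without scaling.

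**Figure D2:**
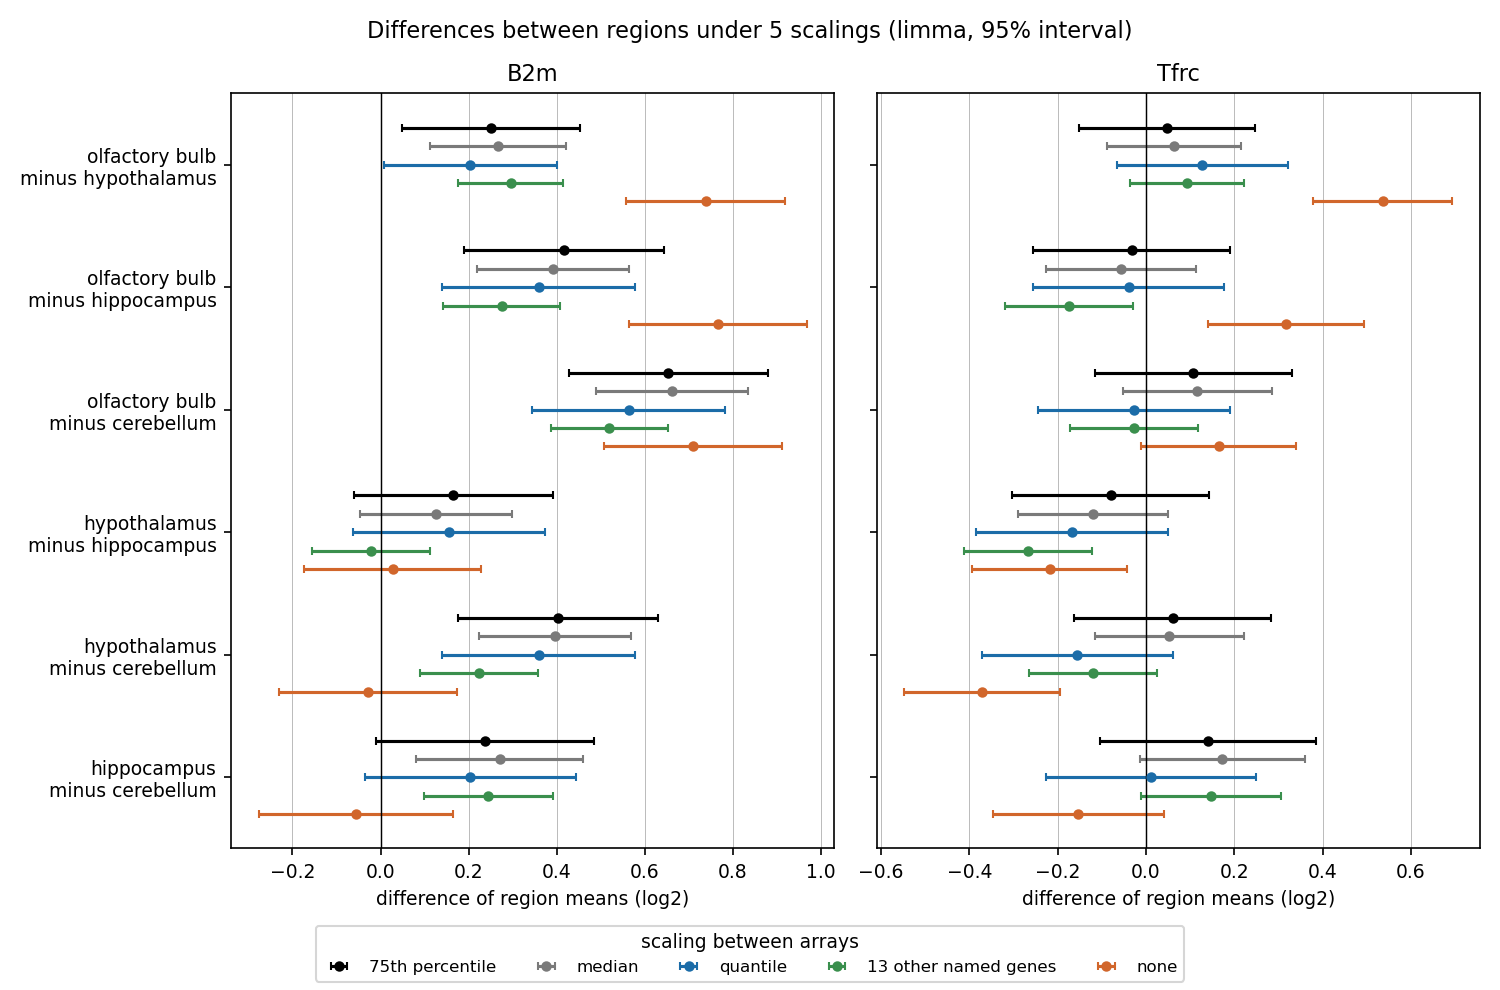
Differences between region means (horizontal axis, log2 units) are plotted for the 6 pairs of regions, for B2m (left) and Tfrc (right), with 95% intervals from limma. Colours give 5 ways of scaling arrays against each other; B2m in olfactory bulb minus cerebellum lies between 0.52 and 0.71 under all 5, while Tfrc in olfactory bulb minus hippocampus runs from -0.17 to 0.32.

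The spread between arrays of a region depended on the scaling as well. For B2m the pooled SD within regions was 0.078 log2 units after scaling to the 75th percentile, 0.068 without scaling and 0.024 relative to the other 13 named genes. For Tfrc these values were 0.075, 0.043 and 0.038.

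The log2 difference between the B2m and Tfrc signals within an array cannot be changed by any scaling factor of that array. Quantile normalization is no such factor and can change it. On unscaled signals the difference was -2.10, -2.14 and -2.21 in olfactory bulb and -2.30, -2.34 and -2.42 in hypothalamus. In hippocampus it was -2.61 and -2.59, and in cerebellum -2.70 and -2.69. No region overlapped another, and B2m fell relative to Tfrc in the order olfactory bulb, hypothalamus, hippocampus, cerebellum. The level of this difference depends on the 2 probes, and only its change between regions is read here.

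Relative to Tfrc, B2m in olfactory bulb exceeded hypothalamus by 0.20 log2 units, hippocampus by 0.45 and cerebellum by 0.55. The hypothalamus exceeded hippocampus by 0.25 and cerebellum by 0.34, and the hippocampus exceeded the cerebellum by 0.10. The pooled SD within regions was 0.049. An exact permutation test of the F statistic over all 25200 assignments of the 10 arrays to regions gave p = 0.000159, the smallest that these assignments allow. Permuting only within replicate numbers gave an exact permutation p of 0.00347, the smallest of 1152 assignments. Other pairs of probes were not examined in this way, so neither p-value sets this pair apart from others. Within the first scan time olfactory bulb minus cerebellum was 0.62 for this difference, and within the second it was 0.55. Hypothalamus was below olfactory bulb by 0.20, 0.20 and 0.21 within the first 3 scan times. A ratio shows that the 2 genes changed unequally, not that either was constant.

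**Figure D3:**
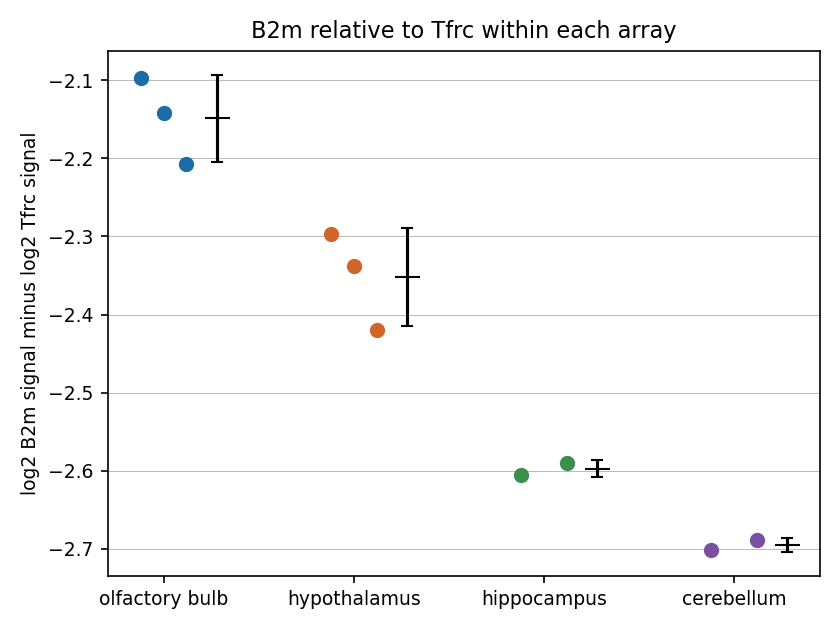
The log2 signal of B2m minus that of Tfrc (vertical axis) is plotted for each array by brain region, with the region mean ± SD beside the points. The 10 arrays fall into separate ranges by region, from -2.10 in olfactory bulb to -2.70 in cerebellum.

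Each gene was also set against the other 13 named genes one at a time within arrays. Relative to these, B2m in olfactory bulb was above hypothalamus for 11 of 13 references, above hippocampus for 10 and above cerebellum for 11, with median differences of 0.41, 0.40 and 0.52 log2 units. The references against which B2m in olfactory bulb was lower were Ldhal6b (all 3 regions), Tbp (hypothalamus and hippocampus), Gusb (hippocampus) and Actb (cerebellum, -0.04). Tfrc in olfactory bulb was above hypothalamus for 9 of 13 references, above hippocampus for 5 and above cerebellum for 6, with median differences of 0.20, -0.04 and -0.02. The references themselves moved between regions, so these counts describe the 13 genes and are not tests.

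**Figure D4:**
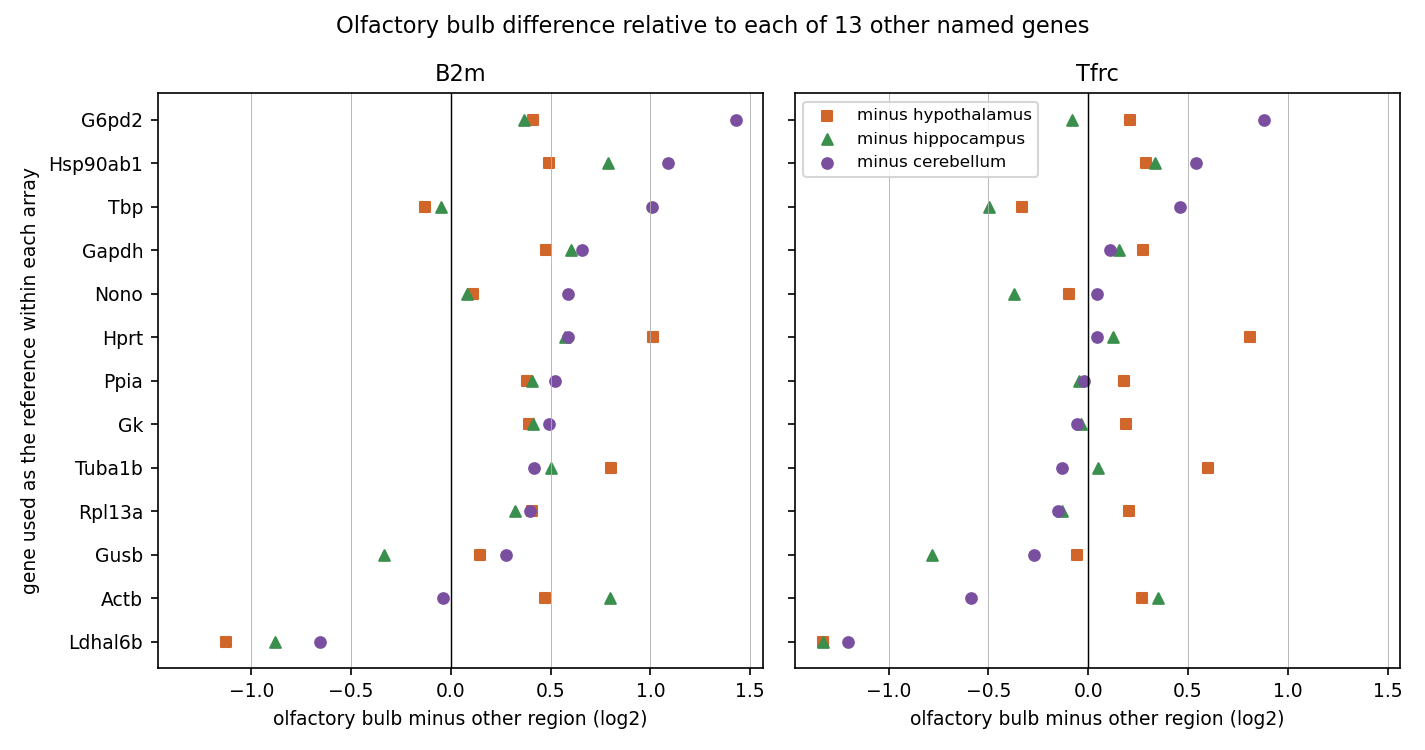
The difference of olfactory bulb minus each other region (horizontal axis, log2 units) is plotted for B2m (left) and Tfrc (right), with each of 13 other named genes in turn as the reference within the array. Marker shape gives the region subtracted; most B2m points lie right of 0, and Tfrc points lie on both sides of it.

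Copies of a probe lie at different places on the array. At all 20 copies the scaled B2m signal of olfactory bulb was above that of cerebellum, by 0.60 to 0.71 log2 units, and the other 5 pairs of regions also kept their direction at all 20 copies. Without scaling, B2m in olfactory bulb was above each other region at all 20 copies, but hypothalamus was above hippocampus at 15 and above cerebellum at 5, and hippocampus was above cerebellum at 3. For scaled Tfrc, hippocampus was above cerebellum at 20 of 20 copies, while olfactory bulb was above hippocampus at 7. Without scaling these counts turned to 0 and 20 for Tfrc. Copies share an array and its RNA, so they describe the reading of the probe and not the spread between samples.

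Among the other named genes, those whose scaled signal over the 10 arrays was most like B2m were Gusb, which encodes the lysosomal enzyme β-glucuronidase (Pearson r = 0.71), and Ldhal6b, a lactate dehydrogenase-like gene (r = 0.68). Scaled Gusb averaged -0.41 in olfactory bulb and -1.16 in hippocampus, and Ldhal6b averaged -1.19 in olfactory bulb and -2.57 in hypothalamus. The genes most like Tfrc were Actb, which encodes cytoplasmic β-actin (r = 0.56), and Gk, which encodes glycerol kinase (r = 0.54). Likeness depended on the scaling: unscaled, Tfrc had r = 0.13 with Actb, 0.63 with Gk and its highest values with Ppia (0.911) and Gapdh (0.906), while B2m had 0.85 with Gusb and its highest with Ldhal6b (0.93). Scaled Actb averaged 4.38 in hippocampus and 3.31 in cerebellum, both the extremes of its regions, as they were for Tfrc. B2m and Tfrc themselves had r = 0.50. All points share their array's scaling, and these correlations are descriptions.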

How the data were processed

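The authors extracted 12 one-colour scans with Agilent Feature Extraction 11.0.1.1, per the submitters' processing notes, and deposited the intensity of every spot as a background-subtracted processed signal, per the file headers. Their deposited value table on the log2 scale has no row for either gene and served only the count of probes. No source used here says whether spike-in RNA was added.

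Outlier copies were left out and the log2 processed signals of the remaining copies averaged. Each scan's 75th percentile was subtracted, and near-identical scans were averaged. Probes that were well above background on every scan of 1 or more regions (56449) were fitted with limma 3.58.1 in R 4.3.3 (lmFit, eBayes, no covariate, 6 residual degrees of freedom), and p-values were adjusted by Benjamini-Hochberg over all of them with a threshold of 0.05. The fit was tested on simulated data. Replicate numbers mark shared scan times for most scans, per the file headers, so they were also fitted as a block. Deviations of same-numbered arrays from their region means correlated at r = 0.09 to 0.75 (median 0.47, 13 pairs). Different-numbered arrays had a median of -0.28 (24 pairs), and centring on region means lowers such values by itself. In regions with 2 arrays the deviations mirror each other, so the pairs are not independent. Alternatives covered scaling, background correction (normexp with an offset of 50), copies, filters and single arrays. The number of arrays limits precision. Only B2m, Tfrc and, for each, the 2 named genes most correlated with it were to be named in detail. Genes and lists were chosen with earlier results of these data known.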

Additional observations from a re-analysis of the deposited data

How the results depend on the processing

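Differences below are in log2 units, the first region named minus the second, with limma adjusted p-values. B2m kept its F test call over the 4 regions under all 25 alternatives, and its excess in olfactory bulb over cerebellum kept direction and call under all 26. The B2m to Tfrc ratio kept its order of regions under all 16 settings run for it. Quantile normalization, which can change this ratio, was not among them. Under it, olfactory bulb minus hypothalamus was 0.20 for B2m and 0.13 for Tfrc, so the ratio separated these regions less than without scaling. The ratio's exact permutation p was 0.000397 to 0.000794 without single arrays, the smallest those numbers of arrays allow, so these p-values do not speak to stability.

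For B2m, olfactory bulb minus hypothalamus passed with median scaling (0.27), without scaling (0.74), with the other named genes (0.30), with all scans counted as arrays (0.25, adjusted p = 0.0327), with limma's trend and robust options (0.25, adjusted p = 0.0439) and with the replicate block, alone (0.25), without scaling (0.74) or with quantile normalization (0.20). Hippocampus minus cerebellum of B2m passed with median scaling (0.27), the other named genes (0.25), all scans counted as arrays (0.23), the replicate block (0.24) and the block with quantile normalization (0.20), and turned to -0.056 without scaling, also with the block. Counting all scans as arrays treats the near-identical scans of hippocampus and cerebellum as separate arrays. Its p-values therefore understate the spread between arrays, and its calls carry little weight. Hypothalamus minus hippocampus of B2m passed with the replicate block (0.18) and with the block and quantile normalization (0.18), and turned to -0.021 with the other named genes. Hypothalamus minus cerebellum of B2m turned to -0.028 without scaling and -0.0011 without scaling with the block. Fitted on the 2 regions alone, B2m lost olfactory bulb minus hippocampus (0.42, adjusted p = 0.101) and hypothalamus minus cerebellum (0.40, adjusted p = 0.0672), with fewer samples in the fit. Without single arrays these 2 differences ran from 0.36 to 0.47 and from 0.33 to 0.47.

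The F test of Tfrc passed without scaling (adjusted p = 0.0015), with the other named genes (0.0482), and with the replicate block without scaling (0.000706) or with quantile normalization (0.0420). Most tested probes passed the F test with the block without scaling, by the count given below. Shares of probes called are not given here for the block with quantile normalization, nor for pairs with the block without scaling. Olfactory bulb minus hypothalamus of Tfrc passed without scaling (0.54, with the block 0.54) and with the block and quantile normalization (0.13). Hypothalamus minus hippocampus of Tfrc passed with the other named genes (-0.27), the block without scaling (-0.22) and the block with quantile normalization (-0.17). Olfactory bulb minus hippocampus of Tfrc turned to 0.32 without scaling (adjusted p = 0.0121) and 0.31 with the block added (adjusted p = 0.00407), both past the threshold. Olfactory bulb minus cerebellum of Tfrc turned to -0.028 with quantile normalization, -0.026 with the other named genes, -0.013 with normexp and quantile normalization and -0.029 with the block and quantile normalization. Hypothalamus minus cerebellum of Tfrc turned to -0.16 with quantile normalization, -0.37 without scaling, -0.12 with the other named genes, -0.14 with normexp and quantile normalization, -0.38 with the block without scaling and -0.16 with the block and quantile normalization; of these, the values without scaling (adjusted p = 0.00561), with the block without scaling (0.00204) and with the block and quantile normalization (0.0308) passed. Hippocampus minus cerebellum of Tfrc turned to -0.15 without scaling, also with the block. Without single arrays, Tfrc in olfactory bulb minus hippocampus ran from -0.095 to 0.030 and in hypothalamus minus cerebellum from -0.017 to 0.14. The causes of these changes were not tested.

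The number of probes called over the 4 regions was 20339. It was 31237 without scaling and 39501 without scaling with the replicate block, and 17103 to 19835 without single arrays. The block combined with other scalings, and the setting that kept outlier copies, were chosen after seeing the data. The authors' value table gave no value for B2m, Tfrc or their ratio. With 10 arrays, differences of Tfrc as wide as the intervals given could be missed.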
